A study of Mus musculus with 6 samples.

Results

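The genes described here are 9 that define macrophages as a lineage: the transcription factor genes Spi1, Cebpa, Cebpb, Maf, Zeb2, Runx1 and Klf4, the growth factor receptor gene Csf1r, and Adgre1, which encodes a surface receptor used to identify mouse macrophages. They were taken by gene symbol, and all 9 were found among the 17067 genes of each expression table. The samples were macrophages sorted by flow cytometry on the surface proteins CD45, CD11b and the Adgre1 product from inflamed mouse colons, the colitis having been caused with dextran sulfate sodium (DSS). There were 3 samples from Gsdmd-/- mice and 3 from wild-type (WT) mice, all on the C57BL/6 strain, 10 weeks old and DSS-treated, so no untreated colon was part of the comparison. The labels name no conditional allele or Cre driver and do not say whether each sample came from its own mouse, so the p-values below reflect only how much these samples vary, which could be technical variation. The question was which of these genes differed in mRNA level between the genotypes.

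Gsdmd encodes gasdermin D, a protein that forms membrane pores after inflammasome caspases cut it. Its level was 28.47, 28.99 and 29.69 FPKM (fragments per kilobase of transcript, scaled to sequencing depth) in Gsdmd-/- macrophages, against 97.65, 99.35 and 97.35 FPKM in WT macrophages. The Gsdmd-/- samples were all lower, and the gene was not at 0 in them. Of 10005 genes tested, 4059 were higher and 3693 lower in Gsdmd-/- macrophages, which is 77.5% of the genes, at a Benjamini-Hochberg adjusted p under 0.05 in limma. On the TPM scale, which sets every sample to the same total, the split was 2498 higher and 5104 lower, and the median log2 change of all tested genes moved to -0.17, against 0.03 on the FPKM scale. The changes followed transcript length (Spearman rho -0.648) and GC content (0.496) across 9852 genes, so each change below is given on the deposited values and after taking that trend out of every sample (trend-corrected). Depth estimated from the steps of the low values was 20.2 to 20.4 M fragments in Gsdmd-/- samples and 19.7 to 20.3 M fragments in WT samples.

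Macrophages are built by a small set of DNA-binding proteins that act in layers. PU.1, the product of Spi1, and Runx1 act early in blood cell formation, and PU.1 together with the C/EBP factors switches on myeloid genes, among them the receptor gene Csf1r. Csf1r binds the growth factors CSF1 and IL-34, on which most tissue macrophages depend for survival. Maf, Zeb2 and Klf4 act later, in the maturation of monocytes and the identity of tissue macrophages. In the intestine, macrophages are replaced from blood monocytes, and this replacement increases in colitis.

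The promoters of 4 transcription factor genes are shown because these genes carry the results below: Zeb2 had the lowest Gsdmd-/- level relative to WT among the 9 genes, and the changes of Cebpa, Cebpb and Runx1 took the opposite sign once length and GC content were taken into account. The change of Spi1 did so as well, but no window of Spi1 was available. After trend correction the changes of Cebpa and Spi1 did not pass the test. Each window runs from 250 bases before to 50 bases after an annotated start, is read 5′ to 3′ on the gene's own strand, and comes from RefSeq on mouse build GRCm38.p6. Capitals mark exact matches, on either strand, to the PU.1 letters GAGGAAGT, the C/EBP letters TTGCNNAA, the RUNX letters TGTGGT, the KLF letters CCACCC, the ZEB letters CACCTG and the TATA box letters TATAAA. The windows are Cebpa at chr7:35119043-35119342 on the plus strand, Cebpb at chr2:167688665-167688964 on the plus strand, the outermost Zeb2 start at chr2:45117393-45117692 on the minus strand, and the outermost Runx1 start at chr16:92826025-92826324 on the minus strand.
Cebpa: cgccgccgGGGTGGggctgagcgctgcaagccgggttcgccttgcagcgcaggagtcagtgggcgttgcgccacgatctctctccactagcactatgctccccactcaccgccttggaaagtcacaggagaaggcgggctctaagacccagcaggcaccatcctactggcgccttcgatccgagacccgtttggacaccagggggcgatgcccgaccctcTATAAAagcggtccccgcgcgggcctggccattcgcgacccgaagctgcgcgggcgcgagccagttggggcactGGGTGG
Cebpb: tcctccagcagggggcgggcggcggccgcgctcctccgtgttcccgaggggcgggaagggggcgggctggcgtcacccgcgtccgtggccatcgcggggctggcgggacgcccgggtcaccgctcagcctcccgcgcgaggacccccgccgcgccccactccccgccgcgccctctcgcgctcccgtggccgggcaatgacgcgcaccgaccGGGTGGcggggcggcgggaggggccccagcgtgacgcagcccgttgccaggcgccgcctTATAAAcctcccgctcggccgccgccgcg
Zeb2: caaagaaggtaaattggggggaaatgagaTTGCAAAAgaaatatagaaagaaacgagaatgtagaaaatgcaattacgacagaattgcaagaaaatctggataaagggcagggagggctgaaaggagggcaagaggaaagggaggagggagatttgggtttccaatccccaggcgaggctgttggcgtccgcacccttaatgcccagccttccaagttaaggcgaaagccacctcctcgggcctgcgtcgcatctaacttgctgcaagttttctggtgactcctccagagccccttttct
Runx1: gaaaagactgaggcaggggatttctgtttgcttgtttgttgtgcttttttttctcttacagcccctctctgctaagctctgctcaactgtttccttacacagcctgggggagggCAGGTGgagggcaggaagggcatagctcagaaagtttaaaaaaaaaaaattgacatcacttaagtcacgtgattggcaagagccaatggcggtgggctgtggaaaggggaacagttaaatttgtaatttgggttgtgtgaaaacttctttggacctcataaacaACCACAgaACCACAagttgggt

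The windows of Cebpa and Cebpb had GC contents of 67.3% and 80.7%, against 49.3% for this Zeb2 window and 45.0% for this Runx1 window. Zeb2 has 4 windows in the table and Runx1 has 2, and the others differ from those shown: the other Runx1 window has a GC content of 69.0% and no RUNX match, and the other Zeb2 windows have 52.7% to 60.7%, the last with a KLF match. With positions counted from 0 at the start, Cebpa held KLF matches at -242 and 44 and a TATA box match at -30. Cebpb held a KLF match at -38 and a TATA box match at 21. The Zeb2 window held 1 C/EBP match at -221, and the Runx1 window held RUNX matches at 28 and 36 and a ZEB match at -136. Over the 32817 promoter windows in the same table, 10.8% held the C/EBP letters, 16.8% RUNX, 31.5% KLF, 20.2% ZEB and 13.6% the TATA box. The PU.1 letters, found in 3.2% of all windows, were in none of the windows of the 5 genes with an entry (Cebpa, Cebpb, Zeb2, Runx1 and Klf4), while the shorter ETS core GGAA, found in 96% of all windows, was in each of them. No GC or motif difference here was tested, and a match is a string of letters, not a bound site.

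Of the 9 genes, 3 were higher in Gsdmd-/- macrophages (Spi1, Cebpa and Cebpb) and 6 were lower (Maf, Zeb2, Runx1, Klf4, Csf1r and Adgre1). The background for these counts is high, since 40.6% of all tested genes were called higher and 36.9% lower. The Gsdmd-/- and WT samples did not overlap for any of the 9 genes, as was so for 79.4% of all tested genes. The median log2 change of the 9 was -0.17, against 0.03 for all tested genes. After trend correction, 1 of the 9 was higher (Runx1), 6 were lower (Cebpb, Maf, Zeb2, Klf4, Csf1r and Adgre1) and 2 did not pass the test (Spi1 and Cebpa), beside 60.3% of all genes past the test, 30.2% higher and 30.1% lower. Maf, Zeb2, Csf1r and Adgre1 were lower in all 18 alternative analyses run. The other 5 genes lost or changed their call in at least 1 of them.

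**Figure D1:**
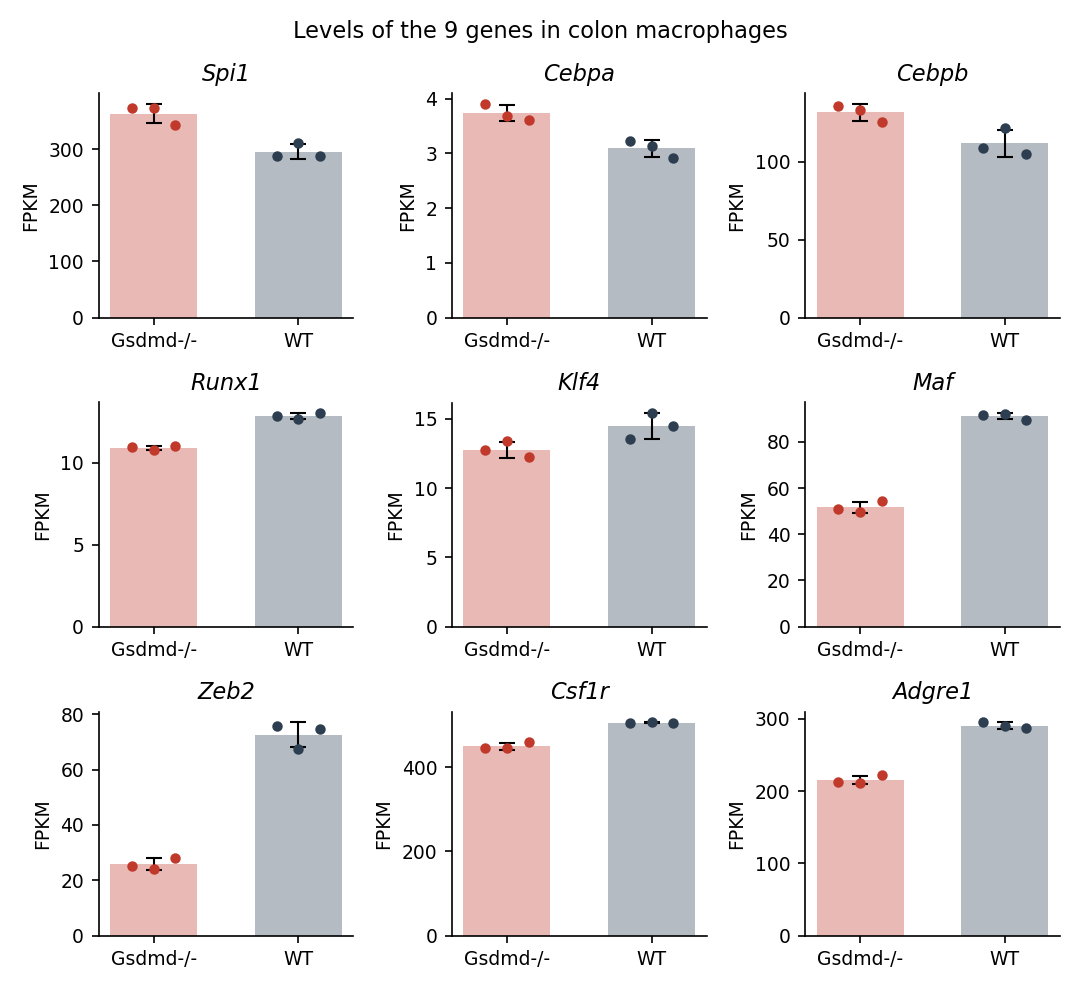
FPKM of the 9 genes in each sample, with 1 panel a gene, Gsdmd-/- samples left of WT samples, points for samples and bars for means. Zeb2 and Maf show the widest gaps relative to their levels (25.9 against 72.6 FPKM and 51.6 against 91.1 FPKM), and Klf4, Csf1r and Runx1 narrow ones.

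Zeb2 (gene 24136, chr2:44983512-45117442, minus strand, positions here and below from RefSeq on GRCm38.p6) encodes a zinc finger repressor that monocytes and tissue macrophages need for their identity. It stood at 25.30, 24.26 and 28.19 FPKM in Gsdmd-/- macrophages, against 75.58, 67.43 and 74.82 FPKM in WT macrophages. The highest Gsdmd-/- sample was far below the lowest WT sample. The ratio of the means was 0.357, and Zeb2 fell by 1.45 as a log2(FPKM + 1) difference (SE 0.0584, limma with Benjamini-Hochberg adjustment, adjusted p = 3.77e-09). This placed it at percentile 0.23 of the changes of all tested genes. After trend correction, the log2 change was -1.06 (SE 0.045, adjusted p = 4.13e-08, limma), at percentile 0.396 of all genes. Its transcripts are long (4822 bases, percentile 83.2) and of low GC content (46.4%, percentile 29.9), and the trend at that length and GC content was -0.39. Its log2 change lay between -1.69 and -0.81 in the alternative analyses. Its exons share 653 bases with the antisense gene Zeb2os, and the sources used here do not say whether counting used the strand.

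Maf (gene 17132, chr8:115703253-115706894, minus strand) encodes c-Maf, a bZIP factor that restrains macrophage proliferation and drives genes of resident macrophages. Maf was at 50.99, 49.62 and 54.33 FPKM in Gsdmd-/- macrophages, against 91.58, 92.14 and 89.58 FPKM in WT macrophages. The WT samples lay close together, within a coefficient of variation of 1.48%, and all stood above the Gsdmd-/- samples. The gene fell by 0.81 in log2 units (SE 0.0373, limma, adjusted p = 4.33e-09). Maf has the longest transcript of the 9 genes at 6360 bases (percentile 91.9 of all genes), and the trend alone at its length and GC content was -0.48. That length is GENCODE's, while the RefSeq gene spans fewer bases, and the trend at the shorter length was not computed. After trend correction, the log2 change was -0.33 (SE 0.0289, adjusted p = 4.59e-06, limma). Of the annotated Maf exons, 440 bases are shared with the antisense gene Gm15655.

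Klf4 (gene 16600, chr4:55527137-55532475, minus strand) encodes a zinc finger factor that promotes monocyte differentiation. It was at 12.72, 13.37 and 12.24 FPKM in Gsdmd-/- macrophages, against 13.56, 15.41 and 14.45 FPKM in WT macrophages. The groups were separated only by the small gap between 13.37 and 13.56 FPKM. The log2 change was -0.17 (SE 0.0556, adjusted p = 0.0162, limma) and, after trend correction, -0.25 (SE 0.0522, adjusted p = 0.00202, limma). The call rested on single samples: without Gsdmd-/- replicate 3 the change was -0.14 (adjusted p = 0.059, limma), and without WT replicate 2 it was -0.12 (adjusted p = 0.0726, limma). After quantile normalization it was -0.13 (adjusted p = 0.0654, limma), also short of the threshold. Among other genes of its family, Klf6, an early response factor of activated myeloid cells, averaged 155 ± 6.17 FPKM in Gsdmd-/- and 227 ± 5.18 FPKM in WT macrophages (SD, n = 3 each). Klf3, a repressor, averaged 11.1 ± 0.992 FPKM in Gsdmd-/- and 26.0 ± 0.785 FPKM in WT macrophages. Klf3 and Klf6 were lower by limma, with adjusted p-values of 7.92e-09 and 2.77e-08, and stayed lower after trend correction, by log2 changes of -0.73 and -0.12.

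Runx1 (gene 12394, chr16:92601466-92826074, minus strand) encodes the DNA-binding subunit of core binding factor, which is needed for the first blood stem cells and primes the Spi1 locus. The values were 10.95, 10.79 and 11.01 FPKM in Gsdmd-/- macrophages, against 12.84, 12.68 and 13.03 FPKM in WT macrophages. Both groups were tight, with coefficients of variation of 1.04% in Gsdmd-/- and 1.36% in WT samples, so a ratio of 0.85 was well outside the spread. The log2 change was -0.22 (SE 0.045, adjusted p = 0.000831, limma), but after trend correction it was 0.11 (SE 0.0396, adjusted p = 0.0313, limma), in the opposite direction. The trend at the length of Runx1 (4738 bases) and its GC content (48.7%) was -0.33, a larger fall than that of the gene itself. Cbfb, which encodes the partner subunit of Runx1, averaged 27.5 ± 0.402 FPKM in Gsdmd-/- and 47.4 ± 2.04 FPKM in WT macrophages (SD, n = 3 each). Cbfb fell by 0.76 in log2 units (adjusted p = 1.00e-08, limma), and its change after trend correction was -0.52. The Runx1 level per unit of Cbfb was 0.397 ± 0.00525 in Gsdmd-/- and 0.271 ± 0.00907 in WT macrophages. For Runx1, 106 exonic bases lie opposite the noncoding gene Gm26626.

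Spi1 (gene 20375, chr2:91082374-91115759, plus strand) encodes PU.1, the ETS factor without which macrophages do not form. It was at 372.38, 373.28 and 343.63 FPKM in Gsdmd-/- macrophages, against 288.42, 310.75 and 288.03 FPKM in WT macrophages. Gsdmd-/- replicate 3 was the lowest of its group and WT replicate 2 the highest of its own, yet the groups stayed apart. The log2 change was 0.30 (SE 0.0393, adjusted p = 2.77e-05, limma). That increase was not kept by every scaling. It was 0.07 on the TPM scale (adjusted p = 0.0473, limma), where the median of all genes was -0.17. It was 0.05 after quantile normalization (adjusted p = 0.146, limma) and -0.05 after trend correction (SE 0.0281, adjusted p = 0.181, limma). With the trend taken on each gene's longest transcript, Spi1 was called lower, at -0.07 (adjusted p = 0.0493, limma). Spi1 transcripts are of 2034 bases with a GC content of 58.9% (percentile 93.3 of all genes), and the trend there was 0.34.

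Cebpb (gene 12608, chr2:167688915-167690432, plus strand) encodes C/EBPβ, which is induced in inflammation and needed for several macrophage subsets. It was at 135.89, 132.94 and 125.61 FPKM in Gsdmd-/- macrophages, against 108.87, 121.30 and 104.73 FPKM in WT macrophages. The lowest Gsdmd-/- sample and the highest WT sample differed by less than the range within the WT group. The log2 change was 0.24 (SE 0.0504, adjusted p = 0.00123, limma), but it was -0.21 after trend correction (SE 0.0395, adjusted p = 0.00107, limma), so the gene passed the test in opposite directions. On the TPM scale it was 0.02 (adjusted p = 0.757, limma). Cebpb has 1 exon block, a short transcript of 1504 bases and the highest GC content of the 9 genes, 67.2% (percentile 99.9), and the trend at these values was 0.44. Cebpb also shares 312 exonic bases with Tmem189 on the opposite strand, which itself was lower, at 62.8 ± 2.47 FPKM in Gsdmd-/- and 75.2 ± 2.77 FPKM in WT macrophages (SD, n = 3 each; log2 change -0.26, adjusted p = 6.71e-05, limma).

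Cebpa (gene 12606, chr7:35119293-35121928, plus strand) encodes C/EBPα, the factor that commits progenitors to the granulocyte and monocyte path. It was the lowest of the 9 genes, at 3.90, 3.69 and 3.61 FPKM in Gsdmd-/- macrophages, against 3.22, 3.14 and 2.92 FPKM in WT macrophages. All Gsdmd-/- samples were above the WT samples, on estimated totals of 190 to 204 fragments in Gsdmd-/- samples and 152 to 169 in WT samples. The log2 change was 0.21 (SE 0.064, adjusted p = 0.00995, limma). It did not pass the test on the TPM scale (0.04, adjusted p = 0.63, limma) or after trend correction (-0.10, SE 0.0595, adjusted p = 0.18, limma). Cebpa too is a gene of 1 exon block and high GC content (62.6%). The Cebpb level per unit of Cebpa was 35.2 ± 0.698 in Gsdmd-/- and 36.1 ± 2.42 in WT macrophages. Of the other C/EBP genes, Cebpd, an acute phase regulator, averaged 55.8 ± 1.52 FPKM in Gsdmd-/- and 39.5 ± 1.67 FPKM in WT macrophages (SD, n = 3 each). Ddit3, which encodes the stress factor CHOP, averaged 25.1 ± 1.21 FPKM in Gsdmd-/- and 11.6 ± 1.69 FPKM in WT macrophages. Unlike Cebpa and Cebpb, Cebpd and Ddit3 were called higher both as deposited (log2 changes 0.49 and 1.06, adjusted p = 3.08e-07 and 7.45e-07, limma) and after trend correction (0.61 and 0.50, adjusted p = 6.15e-07 and 0.000331, limma).

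**Figure D2:**
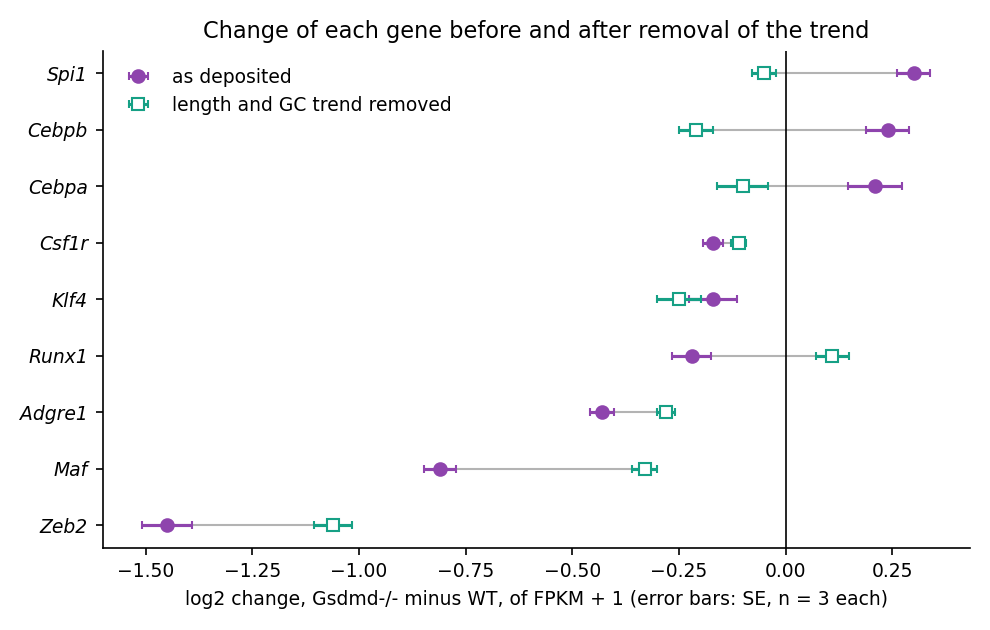
Log2 change of the 9 genes, Gsdmd-/- minus WT, on the log2(FPKM + 1) scale before and after trend correction, with bars for the standard error. Zeb2, Maf, Adgre1, Csf1r and Klf4 are below 0 in both, whereas Spi1, Cebpa and Cebpb go below 0 and Runx1 above 0 after trend correction.

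Csf1r (gene 12978, chromosome 18), the receptor tyrosine kinase for CSF1 and IL-34, was the most abundant of the 9 genes. It was at 444.82, 445.53 and 459.65 FPKM in Gsdmd-/- macrophages, against 505.07, 506.89 and 505.50 FPKM in WT macrophages. The WT samples were within 0.188% of each other as a coefficient of variation, and Gsdmd-/- replicate 3 was the highest of its group. Csf1r fell by 0.17 in log2 units (SE 0.0243, adjusted p = 4.65e-05, limma), a ratio of 0.89. After trend correction the change was -0.11 (SE 0.0169, adjusted p = 0.00025, limma). Over the alternatives it ranged between -0.54 and -0.08, so the direction held in each of them and the size did not. The Csf1r change was at percentile 34.8 of those of all tested genes. Of its exons, 873 bases are shared with Hmgxb3 on the opposite strand, whose levels of 5.2 ± 0.437 FPKM in Gsdmd-/- and 5.43 ± 0.329 FPKM in WT macrophages were far below those of Csf1r.

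Adgre1 (gene 13733, chr17:57358581-57483529, plus strand) encodes an adhesion receptor of mouse macrophages that was part of the sorting gate. Its values were 213.09, 211.77 and 222.19 FPKM in Gsdmd-/- macrophages, against 295.48, 289.84 and 287.06 FPKM in WT macrophages. Every Gsdmd-/- sample was below every WT sample. Adgre1 fell by 0.43 in log2 units (SE 0.0281, adjusted p = 5.44e-08, limma) and by 0.28 after trend correction (log2 change -0.28, SE 0.0215, adjusted p = 1.84e-06, limma). The other genes of the gate were lower as well. Itgam, which encodes CD11b, averaged 91.3 ± 4.07 FPKM in Gsdmd-/- and 176 ± 3.24 FPKM in WT macrophages, and Ptprc, which encodes CD45, averaged 57.9 ± 2.5 FPKM in Gsdmd-/- and 92.4 ± 4.73 FPKM in WT macrophages (SD, n = 3 each). Their log2 changes were -0.94 and -0.67 as deposited and -0.63 and -0.16 after trend correction. In these bulk samples, fewer cells of a type and less RNA per cell cannot be told apart, and the gate selects on protein, not mRNA.

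The place of the 9 genes in the trend is shown by their transcripts. Spi1, Cebpa and Cebpb, the 3 genes called higher as deposited, were at GC percentiles 93.3, 99.1 and 99.9 of all genes and at length percentiles 31.8, 46.2 and 17.8. The trend at those values was 0.34, 0.31 and 0.44, which is more than the change of each gene itself. Maf, Zeb2 and Runx1 had length percentiles of 91.9, 83.2 and 82.5 and trend values of -0.48, -0.39 and -0.33. Klf4, Csf1r and Adgre1 lay nearest the centre, with trend values of 0.08, -0.06 and -0.15. Over all genes, the trend took up 51.4% of the variance in log2 change. RNA quality and library preparation were not described in the labels beyond the platform's standard protocol, and their part in the results was not tested.

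**Figure D3:**
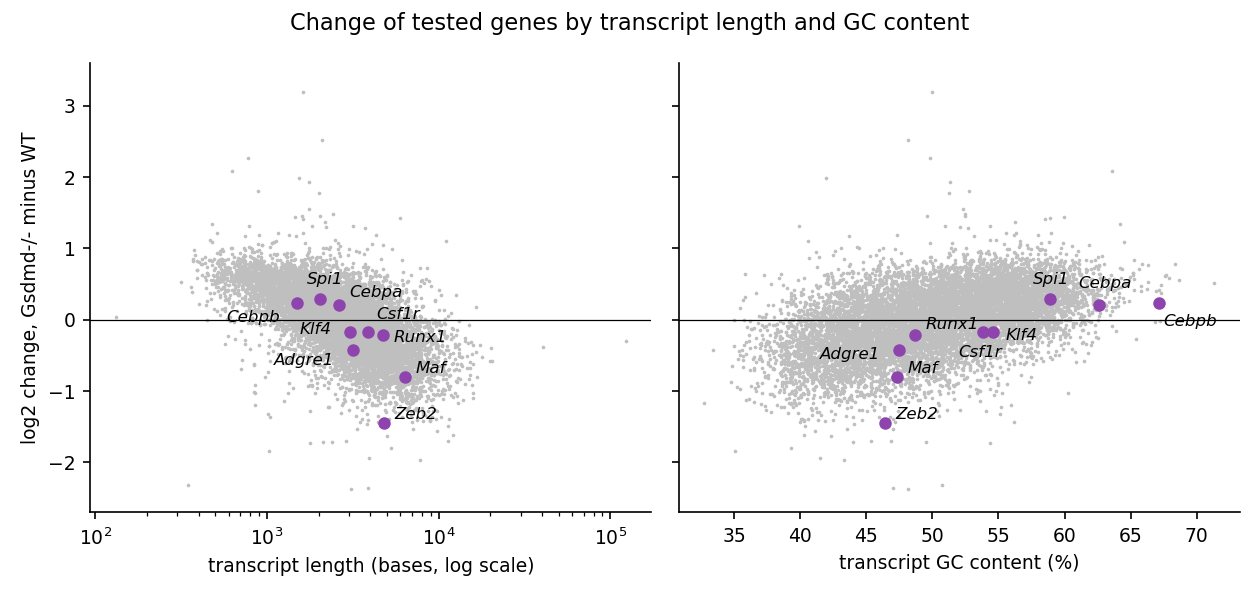
Log2 change, Gsdmd-/- minus WT, of the tested genes (grey points) against transcript length in bases on a log axis and transcript GC content in percent, with the 9 genes in purple. Longer and GC-poorer transcripts tend to be lower in Gsdmd-/- macrophages; Cebpb, Cebpa and Spi1 lie at the GC-rich end, and Zeb2 lies below most genes of its length.

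The 9 genes kept the same order of level in both genotypes. On the FPKM scale, which is per length of transcript, the order was Csf1r, Spi1, Adgre1, Cebpb, Maf, Zeb2, Klf4, Runx1 and Cebpa. Neighbours in this order did not overlap in their sample values in Gsdmd-/- macrophages. In WT macrophages Spi1, at 288.03 to 310.75 FPKM, and Adgre1, at 287.06 to 295.48 FPKM, overlapped, and no other neighbours did. Relative to the genes called lower, Spi1 stood higher in Gsdmd-/- macrophages: the Spi1 level was 7.05 ± 0.638 times that of Maf in Gsdmd-/- macrophages and 3.25 ± 0.115 times in WT macrophages. It was 33.3 ± 1.81 times that of Runx1 in Gsdmd-/- and 23 ± 1.3 times in WT macrophages. These ratios of levels, and those given for other pairs of genes, are not corrected for length and GC content.

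Within the groups, the samples also differed. Gsdmd-/- replicate 3 was the nearest of its group to the WT mean for 8 of the 9 genes, all but Klf4, and for 49.2% of all tested genes, against 27.3% and 23.5% for replicates 1 and 2. Among WT samples, replicate 2 was the nearest to the Gsdmd-/- mean for Spi1, Cebpb, Zeb2 and Runx1, and for 48.6% of all tested genes. Zeb2 varied most within Gsdmd-/- macrophages (coefficient of variation 7.86%), and Cebpb most within WT macrophages (7.73%). Leaving out any sample in turn changed no call among the 9 genes other than that of Klf4.

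Around the receptor, Csf1, which encodes its ligand, was at 58.47, 60.02 and 60.01 FPKM in Gsdmd-/- macrophages, against 71.71, 72.43 and 71.17 FPKM in WT macrophages. It fell by 0.27 in log2 units (adjusted p = 6.36e-06, limma), and the change was -0.34 after trend correction. Csf1r per unit of Csf1 was 7.56 ± 0.124 in Gsdmd-/- and 7.05 ± 0.0524 in WT macrophages. Il34, the gene of the other ligand, was below the level needed for testing, at 0.24, 0.25 and 0.14 FPKM in Gsdmd-/- and 0.03, 0.00 and 0.06 FPKM in WT macrophages. Of 32 tested genes of Csf1r ligands and signalling, 7 were higher and 18 lower, with a median log2 change of -0.21, and after trend correction 4 were higher and 21 lower, with a median of -0.19. The shares over all tested genes were 40.6% higher and 36.9% lower as deposited and 30.2% higher and 30.1% lower after trend correction. Cbl, the ubiquitin ligase that sends active Csf1r to degradation, averaged 3.09 ± 0.573 FPKM in Gsdmd-/- and 12.2 ± 0.875 FPKM in WT macrophages (SD, n = 3 each; log2 change -1.69, adjusted p = 2.41e-08, limma; -1.07 after trend correction). Adam17, the protease that sheds the receptor from the surface, averaged 56.7 ± 2.11 FPKM in Gsdmd-/- and 88.0 ± 2.96 FPKM in WT macrophages (log2 change -0.62, adjusted p = 2.85e-08, limma; -0.24 after trend correction). Also lower, before and after trend correction, were the phosphoinositide 3-kinase genes Pik3cb (log2 changes -0.76 and -0.25), Pik3r5 (-0.41 and -0.38) and Pik3r1 (-0.63 and -0.18). Spred1, which encodes a brake on Ras signalling, was lower too (-0.74 and -0.35). Relatives of these genes differed: Pik3cd did not pass the test in either (0.03 and 0.06). Pik3ca (-0.38 and 0.26) and Cblb, a relative of Cbl (-0.22 and 0.28), were lower as deposited and higher after trend correction.

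The receptors of the other colony-stimulating factors did not move as 1 group. Csf2ra, the GM-CSF binding subunit, was at 205.39, 207.22 and 194.04 FPKM in Gsdmd-/- macrophages, against 147.90, 157.39 and 148.05 FPKM in WT macrophages. Its log2 change of 0.42 (adjusted p = 4.29e-07, limma) was 0.02 after trend correction (adjusted p = 0.471, limma). The shared signalling subunit Csf2rb averaged 304 ± 13.2 FPKM in Gsdmd-/- and 359 ± 1.82 FPKM in WT macrophages, and its near-identical copy Csf2rb2 averaged 191 ± 3.72 FPKM in Gsdmd-/- and 249 ± 2.51 FPKM in WT macrophages (SD, n = 3 each). Their log2 changes were -0.24 and -0.38 (adjusted p = 2e-05 and 9.18e-08, limma), and -0.09 and -0.32 after trend correction, but reads of the copies may have been split between them in either direction. Csf3r, the G-CSF receptor, averaged 37.5 ± 0.88 FPKM in Gsdmd-/- and 29.6 ± 1.56 FPKM in WT macrophages, a log2 change of 0.33 (adjusted p = 2.05e-05, limma), and of 0.31 after trend correction. The Csf1r level was 2.23 ± 0.122 times that of Csf2ra in Gsdmd-/- and 3.35 ± 0.112 times in WT macrophages. That ratio is not corrected for length and GC content, and the log2 changes of Csf1r and Csf2ra were -0.11 and 0.02 after trend correction.

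**Figure D4:**
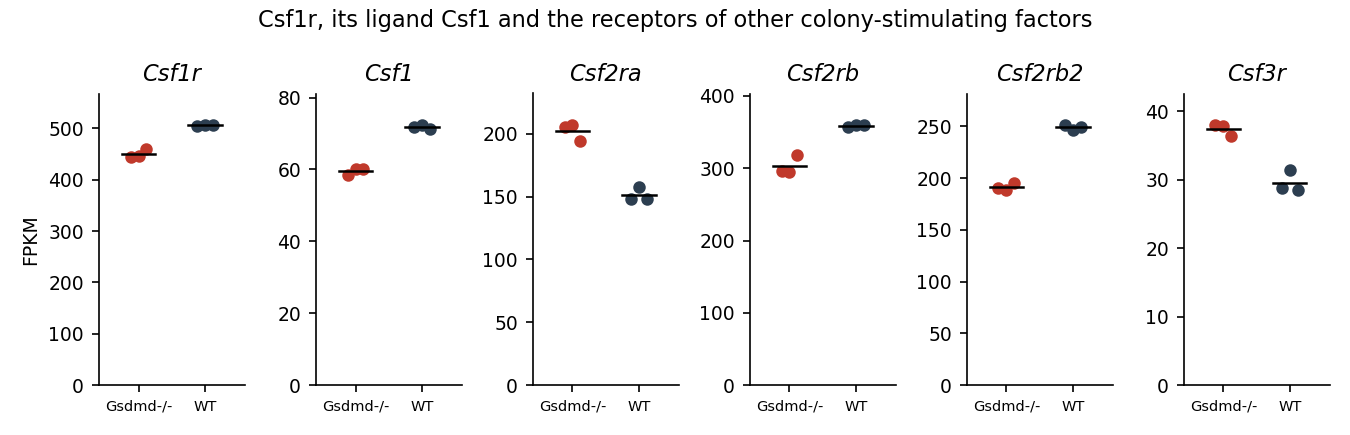
FPKM of Csf1r, its ligand gene Csf1 and the other colony-stimulating factor receptor genes in each sample, Gsdmd-/- left of WT, with bars for means. Csf1r, Csf1, Csf2rb and Csf2rb2 are lower in all Gsdmd-/- samples, and Csf2ra and Csf3r higher, though the Csf2ra difference is gone after trend correction (log2 change 0.02).

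As deposited, genes that PU.1 is known to activate gave no single direction beside Spi1. Of 19 such genes, 8 were higher and 9 lower in Gsdmd-/- macrophages, with a median log2 change of -0.04, and after trend correction 4 were higher and 13 lower, with a median of -0.13. The counts as deposited lie near the shares over all tested genes, 40.6% higher and 36.9% lower. After trend correction the shares were 30.2% higher and 30.1% lower, and 13 lower of 19 is a larger share than the latter. The list was not tested as a set. Among the lower ones, Itgam, Msr1 (a scavenger receptor, 202 ± 3.9 FPKM in Gsdmd-/- and 317 ± 13.2 FPKM in WT macrophages), Tlr4 (the endotoxin receptor, 13.5 ± 0.448 FPKM in Gsdmd-/- and 28.2 ± 1.57 FPKM in WT macrophages) and Il1b (a cytokine released through gasdermin D pores, 184 ± 2.46 FPKM in Gsdmd-/- and 269 ± 6.23 FPKM in WT macrophages) remained lower after trend correction. Their log2 changes were -0.94, -0.65, -1.0 and -0.55 as deposited and -0.63, -0.45, -0.49 and -0.73 after trend correction. Cybb, the catalytic subunit of the phagocyte oxidase, had a log2 change of -0.54 that was -0.06 after trend correction. The Fc receptor gene Fcgr3 had a log2 change of 0.34, which was 0.06 after trend correction and -0.05 after quantile normalization.

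Beside Maf and Zeb2, other myeloid transcription factor genes were called lower more often than higher. Of 34 tested genes of this kind, 10 were higher and 21 lower, with a median log2 change of -0.28, and after trend correction 4 were higher and 23 lower, with a median of -0.26. Over all tested genes, 40.6% were higher and 36.9% lower (median 0.03), and 30.2% and 30.1% after trend correction (median 0.00). Elf1, an ETS factor, averaged 16.5 ± 0.498 FPKM in Gsdmd-/- and 45.2 ± 1.03 FPKM in WT macrophages (SD, n = 3 each; log2 change -1.40, adjusted p = 3.76e-10, limma; -0.98 after trend correction). Mitf, a partner of PU.1 in osteoclasts, averaged 16.6 ± 0.455 FPKM in Gsdmd-/- and 32.0 ± 1.02 FPKM in WT macrophages (log2 change -0.91, adjusted p = 4.5e-09, limma; -0.99 after trend correction). Ikzf1, which encodes the zinc finger factor Ikaros, averaged 71.3 ± 1.65 FPKM in Gsdmd-/- and 127 ± 3.05 FPKM in WT macrophages (log2 change -0.83, adjusted p = 1.45e-09, limma; -0.75 after trend correction). Etv3 (-1.16 and -0.84), Mef2a (-1.0 and -0.54) and Creb5 (-0.82 and -0.22) were lower before and after trend correction. The 4 genes called higher after trend correction were Batf3 (0.90 and 0.24), Nfil3 (0.51 and 0.24), Tfec (0.13 and 0.11) and Tcf4 (-0.18 and 0.35). Of these, only Tcf4 was lower as deposited. Of the 20 tested relatives of the 9 genes, 4 were higher and 12 lower, with a median of -0.20, and after trend correction 3 were higher and 10 lower, with a median of -0.11. Zeb1, the paralogue of Zeb2, averaged 3.16 ± 0.173 FPKM in Gsdmd-/- and 6.02 ± 0.482 FPKM in WT macrophages, so the Zeb2 level per unit of Zeb1 was 8.2 ± 0.366 in Gsdmd-/- and 12.1 ± 0.228 in WT macrophages.

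**Figure D5:**
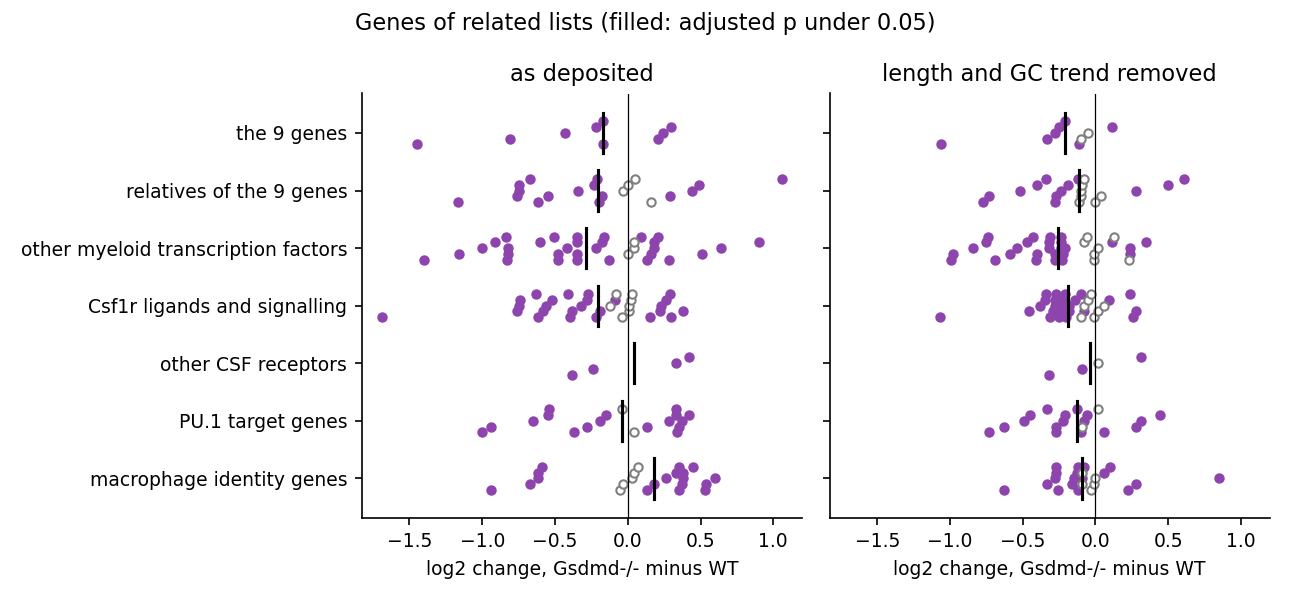
Log2 change, Gsdmd-/- minus WT, of each tested gene in the lists around the 9 genes, before and after trend correction, with a bar for each list's median. The median of the other myeloid transcription factors is -0.28 as deposited and -0.26 after trend correction, whereas that of the macrophage identity genes is 0.18 as deposited and -0.09 after trend correction.

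The macrophage label held at the level of markers. Of 24 macrophage identity genes, 23 were tested, and the lysosomal protease gene Ctsb averaged 8999 ± 158 FPKM in Gsdmd-/- and 6200 ± 134 FPKM in WT macrophages (SD, n = 3 each). Of the 23, 13 were higher and 5 lower as deposited, but 5 were higher and 13 lower after trend correction, and 5 were higher and 9 lower after quantile normalization. Over all tested genes, 40.6% were higher and 36.9% lower as deposited, and 30.2% and 30.1% after trend correction. After quantile normalization 4098 of the 10005 genes were higher and 3619 lower. The list was not tested as a set. The complement gene C1qa, for example, had a log2 change of 0.45 as deposited, -0.12 after trend correction and -0.03 after quantile normalization. Markers of other cells differed between the groups. The fibroblast, smooth muscle and glia, endothelial, dendritic cell and T and NK cell lists each held markers at levels within the range of the 9 genes. The bottom of that range was Cebpa, at 3.73 FPKM in Gsdmd-/- and 3.09 FPKM in WT macrophages. Uchl1, Kdr and Bgn reached the highest levels of these markers. The summed level of 11 fibroblast markers was 89.3 to 91.1 FPKM in Gsdmd-/- and 33.3 to 34.8 FPKM in WT samples. All 7 that were tested were higher, beside 40.6% of all tested genes. Among the 7, Col3a1 reached 1 FPKM only in Gsdmd-/- samples, so its call was nearly fixed by the filter. Pdgfra, Pdgfrb, Thy1 and Lum averaged 0.613 FPKM or less in either group and were not tested. Lum averaged 0.08 FPKM in Gsdmd-/- and 0.113 FPKM in WT samples. The sum of 8 smooth muscle and glia markers was 96.9 to 111 FPKM in Gsdmd-/- and 57.4 to 61.8 FPKM in WT samples. Most of it was Uchl1, at 91.0 ± 7.98 FPKM in Gsdmd-/- and 57.0 ± 1.41 FPKM in WT samples (SD, n = 3 each). The sum of 8 endothelial markers was 34.9 to 40.7 FPKM in Gsdmd-/- and 62.8 to 67.1 FPKM in WT samples. Kdr alone, at 26.2 ± 2.3 FPKM in Gsdmd-/- and 56.4 ± 1.59 FPKM in WT samples, set this lower sum. Of the 4 endothelial markers tested, Kdr was lower, Plvap was higher and 2, Cdh5 and Vwf, did not pass the test. Plvap (1.19 ± 0.155 FPKM in Gsdmd-/- and 0.263 ± 0.144 FPKM in WT samples) reached 1 FPKM only in Gsdmd-/- samples. It was tested through that group alone, so its call was nearly fixed by the filter. After trend correction Cdh5 and Vwf were higher (log2 changes 0.27 and 0.22), Plvap stayed higher and Kdr lower. The sums for dendritic cell markers (25.7 to 26.8 FPKM in Gsdmd-/- and 16.3 to 16.6 FPKM in WT samples, 9 genes) and T and NK cell markers (14.7 to 15.9 FPKM in Gsdmd-/- and 8.65 to 9.51 FPKM in WT samples, 9 genes) were higher in Gsdmd-/- samples. A few genes carried both sums: Batf3 (14.8 ± 0.53 FPKM in Gsdmd-/- and 7.48 ± 0.41 FPKM in WT samples) and Ccr7 made up most of the dendritic cell sum, and Lck, Cd8b1 and Cd4 most of the T and NK cell sum. The dendritic cell marker Clec9a averaged 0.55 FPKM in Gsdmd-/- and 0.79 FPKM in WT samples, and the T cell markers Cd3d and Cd3e averaged 0.05 FPKM or less in either group. Sums stayed at or below 6.69 FPKM in every sample for 9 neutrophil, 8 eosinophil and mast cell, 8 B and plasma cell and 6 epithelial markers. The lists were longer, with 10 neutrophil, 11 eosinophil and mast cell, 11 epithelial, 12 T and NK cell and 12 fibroblast markers. Those without an entry in the deposited data are left out of the sums. No marker with an entry was at 0 in all 6 samples, which does not show that every listed marker was detected. The part of these cells in the levels of the 9 genes was not tested.

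Across the 6 samples, the genes nearest in pattern to Zeb2 were Ptgs2, Ranbp2 and Dennd1b, with root mean square differences of 0.0354, 0.0363 and 0.0435 on the centred log2 scale, and log2 changes of -1.44, -1.40 and -1.41. Nearest to Csf1r were Dlst, Capn2 and Rheb, at 0.0061, 0.00954 and 0.0121. Nearest to Spi1 were Itpa, Hmga1 and Igfbp4, at 0.0149, 0.0189 and 0.0189. These were picked out of 5002 genes with a level above the median of tested genes, and the 6 samples form only 2 groups. After trend correction, Igfbp4 had a log2 change of 0.33 and Itpa of -0.07, against -0.05 for Spi1.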

How the data were processed

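The files hold 1 table per sample with a gene ID, a symbol and an expression value, which the authors deposited without naming its unit. The values were taken as FPKM: columns do not add up to a common total, and the smallest values are multiples of a unit inversely related to transcript length. Read this way, the FPKM the authors deposited were scaled to transcript length and depth before deposit. Per the submitters' processing notes, Bowtie2 2.2.5 and build GRCm38.p6 were used, and the sources used here name no counting step, annotation or use of strand. Tables were joined on gene ID, and 25 symbols turned into dates were restored from RefSeq.

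Genes reaching 1 FPKM in 3 or more of the 6 samples were tested on log2(FPKM + 1) with limma 3.58.1 (trend and robust settings, R 4.3.3), with Benjamini-Hochberg adjustment over all 10005 genes and a threshold of 0.05. Fold changes on this scale understate the change of low genes. An exact two-sided permutation test of 3 against 3 samples cannot give less than 0.1, so none is reported. For the trend correction, each sample's log2 values were taken as deviations from the midpoint of the gene's group means. These deviations were regressed on transcript length and GC content (natural splines with 4 degrees of freedom each and their interaction, 9852 genes with both). The fitted part was subtracted from the sample's log2 values, which were then tested. Lengths came from GENCODE M21 transcripts paired with RefSeq on the same build. Fragment numbers and depth are estimates from the steps between low values, and no read counts were used. Scripts were tested on simulated data first.

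Same-numbered Gsdmd-/- and WT samples did not deviate together, with correlations of -0.0818, 0.132 and 0.0143, so the numbers were not used as pairs. No 2 samples were copies: at most 0.75% of values were identical, and log2 values correlated at 0.997 to 0.998 within groups and 0.967 to 0.975 between them. The 9 genes, the lists and the tests were chosen with earlier results of these data known. Beside the 9 genes and Gsdmd, the text names up to 6 genes with the smallest p from each list, both Csf1r ligands, all other CSF receptor genes, the 3 nearest in pattern to Csf1r, Spi1 and Zeb2, and overlapping genes. From each marker list, up to 3 genes with the highest level could be named. Zeb1, Plvap, Clec9a, Cd3d, Cd3e, Col3a1, Pdgfra, Pdgfrb, Thy1 and Lum were named outside that rule, after their values were seen. So were Pik3r1, Pik3ca, Pik3cd, Cblb, Nfil3, Tfec and Tcf4. Some genes that the rule selects are not reported here. Alternatives were pseudocounts of 0.1 and 0.01, no filter, a filter of 5 FPKM, TPM, quantile and median-ratio scaling, the trend removed, a replicate block, limma without trend and without robust settings, and each sample left out.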

Additional observations from a re-analysis of the deposited data

How the results depend on the processing

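Of 161 alternative values for the 9 genes, 142 kept direction and side of the threshold, 7 kept direction but lost the call, and 12 changed sign. Not all of those 12 passed the test. The opposite call was reached in 3 values of Cebpb, 2 of Runx1 and 1 of Spi1, and in 0 of Cebpa. The number of the 9 genes called higher, 3 as reported, was 1 on the TPM scale, 1 after quantile normalization, 1 with the length and GC trend removed, 1 with that trend taken on the longest transcript (chosen after seeing the data) and 0 with a replicate block and the trend removed together. The number called lower, 6 as reported, was 7 with the longest transcript, where Spi1 was called lower. It was 5 after quantile normalization, without Gsdmd-/- replicate 3 and without WT replicate 2, as Klf4 lost its call in each. With the trend removed it stayed at 6, but with Cebpb in and Runx1 out. Of all genes, 2498 were called higher on the TPM scale, against 4059. With the trend removed, with the block added to it and with the longest transcript, the log2 changes were -0.05, -0.05 and -0.07 for Spi1, -0.10, -0.10 and -0.12 for Cebpa, -0.21, -0.21 and -0.21 for Cebpb, 0.11, 0.11 and 0.21 for Runx1 and -0.12, -0.12 and -0.13 for C1qa. After quantile normalization they were -0.03 for C1qa and -0.05 for Fcgr3. The replicate block alone left 4095 genes higher and 3706 lower and the 9 genes at 3 higher and 6 lower. Leaving out each sample in turn gave 3867 to 3982 genes higher and 3507 to 3659 lower. Of 630 values for 35 other genes (Gsdmd and those that the naming rule took outside the marker lists), 620 kept direction and call. Of 216 list counts, 27 moved by over 1.5 times, all through scaling or removal of the trend. Cebpa was not tested at 5 FPKM, where 2 of the 9 genes were called higher. Cebpa rested on the fewest estimated fragments of the 9 genes, 152 to 204 a sample. The causes of these changes were not tested.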
